A study of Mus musculus with 11 samples.

Results

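The genes described here are the Wnt ligands, their Frizzled receptors, the co-receptors Lrp5 and Lrp6, and the secreted antagonists of the Sfrp and Dkk families, read in the tibialis anterior (TA) of dystrophic mice. They were chosen by symbol, with earlier results of these data known. Taken were all genes of the deposited messenger RNA table named Wnt, Fzd, Sfrp or Dkk followed by a digit. Frzb (also called Sfrp3), Lrp5 and Lrp6 were added by name, and the study itself lists Frzb among the RNAs that differed most in mdx muscle. The rule gave 40 of the 21759 gene symbols in the table, with 41 of its 28350 probe sets. They are 19 Wnt ligands, 10 Frizzled receptors, 2 co-receptors and 9 secreted antagonists. RNA from TA sections of 11 male mice, all labelled as strain C57/B10 and 14 weeks old, was read on Mouse Gene ST 1.1 arrays from Affymetrix, with 1 array per mouse. The 3 C57 mice were wild-type, with no treatment given in the labels. The 4 mdx mice, which carry a nonsense mutation in the dystrophin gene Dmd in every cell, likewise had no treatment in the labels, and 4 further mdx mice (the treated mice) had received Pip6e-PMO once into the tail vein, at an age of 12 weeks and a dose of 12.5 mg/kg. Pip6e-PMO is a morpholino antisense oligonucleotide joined to a peptide that carries it into muscle, and it makes the splicing machinery skip the mutated exon. The labels name no group given saline or another oligonucleotide, so a response to the injection itself cannot be told apart from a response to exon skipping. Values are log2 of the deposited intensities, in the order of the mouse numbers, and each probe set is compared only with itself, since the brightness of different probe sets does not measure the relative amount of 2 RNAs.

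Wnt proteins are lipid-modified secreted ligands. They bind the cysteine-rich domain of a Frizzled receptor, and together with Lrp5 or Lrp6 this stops the destruction of beta-catenin, which then acts with TCF and LEF factors on target genes such as Axin2. Other Wnt signals pass through Frizzled without beta-catenin, to cell polarity or to calcium. Sfrp proteins and Frzb carry a domain like that of Frizzled and bind Wnt outside the cell. Of the Dkk proteins, Dkk1, Dkk2 and Dkk4 act on Lrp5 and Lrp6. In skeletal muscle the pathway is known for its part in the activity of satellite cells, the stem cells of the fibre, in the growth of regenerating fibres, and in fibrosis.

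The stretches of genome before the transcription start are shown for the members with the largest falls and the largest rise in mdx muscle described further on: Frzb, Sfrp5 and Wnt4 fell, and Sfrp2 rose. The sequences are those of RefSeq on the build GRCm38.p6, written 5′ to 3′ along the strand of the gene, and hold the 250 bases before the annotated start. Capitals mark matches, on either strand, to CTTTGAT or CTTTGAA (the core read by TCF and LEF factors), to CAGCTG (an E-box of the kind read by myogenic factors), to TATAAA, to CCAAT, or to the GC box GGGCGG. Overlapping GC boxes run together in Wnt4.
Frzb, chr2:80447397-80447646, minus strand: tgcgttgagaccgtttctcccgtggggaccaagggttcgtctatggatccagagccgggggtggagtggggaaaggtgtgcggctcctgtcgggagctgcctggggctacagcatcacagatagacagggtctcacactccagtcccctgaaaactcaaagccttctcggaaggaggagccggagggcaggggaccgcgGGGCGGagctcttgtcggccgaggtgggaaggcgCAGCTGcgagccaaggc
Sfrp5, chr19:42202253-42202502, minus strand: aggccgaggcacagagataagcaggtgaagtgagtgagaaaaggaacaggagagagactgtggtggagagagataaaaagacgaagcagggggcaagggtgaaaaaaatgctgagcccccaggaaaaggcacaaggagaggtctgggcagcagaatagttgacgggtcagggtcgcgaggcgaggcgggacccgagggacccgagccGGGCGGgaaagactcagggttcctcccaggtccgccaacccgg
Wnt4, chr4:137277385-137277634, plus strand: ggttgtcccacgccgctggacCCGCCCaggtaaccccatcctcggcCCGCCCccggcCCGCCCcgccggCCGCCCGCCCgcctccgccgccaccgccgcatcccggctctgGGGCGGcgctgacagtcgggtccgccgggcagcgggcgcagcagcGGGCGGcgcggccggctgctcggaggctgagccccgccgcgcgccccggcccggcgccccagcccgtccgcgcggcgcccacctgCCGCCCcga
Sfrp2, chr3:83766071-83766320, plus strand: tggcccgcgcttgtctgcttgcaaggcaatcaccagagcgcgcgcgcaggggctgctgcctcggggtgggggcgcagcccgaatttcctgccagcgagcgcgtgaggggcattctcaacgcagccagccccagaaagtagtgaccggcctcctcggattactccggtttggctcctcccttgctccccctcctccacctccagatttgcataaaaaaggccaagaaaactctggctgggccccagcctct
The window of Frzb held a GC box and an E-box CAGCTG, whose last base lies 12 bases before the start. That of Sfrp5 held a GC box, and that of Wnt4, with 85.2% G and C against a median of 52.4% over all windows, held 8. The window of Sfrp2 held none of these motifs. Of the 32851 windows in the table, 32.7% held a GC box, 13.0% the E-box CAGCTG, 33.8% CCAAT, 12.4% TATAAA and 7.48% a TCF/LEF core. RefSeq windows were at hand for 12 of the 22 members that could be tested, 13 windows in all. A GC box stood in 10 of these 13 windows, and a TCF/LEF core in 1, which belongs to Wnt11.

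Every member was accounted for before the comparisons. A probe set was tested when its mean signal reached 30 on the linear scale in at least 1 group. Of the 40 members, 22 did and 18 did not. The untested members are 14 of the 19 Wnt ligands (Wnt1, Wnt2, Wnt2b, Wnt3, Wnt3a, Wnt5b, Wnt6, Wnt7a, Wnt7b, Wnt8a, Wnt8b, Wnt9b, Wnt10b and Wnt16), the receptor Fzd3, and the antagonists Dkk1, Dkk2 and Dkk4, with group means between 6.50 and 24.7 on the linear scale. They are named only, and their low signal does not show that the RNA was absent. Of the tested members, 20 reached the minimum in all 3 groups, whereas Frzb and Wnt10a reached it in C57 muscle only. Several Wnt genes lie next to each other in the genome. By the deposited positions, for which no build is named, Wnt10a and Wnt6 were 6.57 kb apart, Wnt1 and Wnt10b 11.7 kb, Wnt3a and Wnt9a 16.2 kb, and Wnt3 and Wnt9b 24.4 kb. Of each of these pairs at most 1 gene could be tested, namely Wnt10a and Wnt9a.

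The treated mouse T2 stood apart from the other 3 treated mice. Over all 14494 probe sets tested it was the highest or lowest of the 4 in 72.7%, against 53.5% for T1, 39.6% for T4 and 26.2% for T3, and over the 22 tested members it was highest in 14 and lowest in 5. Differences of Wnt family members that involve the treated mice are therefore given with and without T2 where leaving it out changed a call. Without T2 the share of all probe sets called rose to 28.3% for treated minus mdx and to 34.0% for treated minus C57. The study reports that its treated sample T2 had the least exon skipping by PCR and the least dystrophin by mass spectrometry. It also describes the mRNA profile of T2 as the least restored of the treated samples. Whether the weaker response to treatment accounts for the place of T2 here was not tested. The adult fibre markers Acta1, Ckm, Tnnt3, Myh4 and Pvalb all passed the minimum signal, and their differences ran from -0.09 to 0.05. They mark skeletal muscle fibres in general and do not check which muscle was taken. The Dmd probe set measured 5.87, 5.83 and 5.77 in the C57 mice, 5.82, 5.36, 5.33 and 4.60 in the mdx mice and 6.34, 5.51, 5.68 and 5.68 in the treated mice, and was not called in any comparison (adjusted p = 0.198 for mdx minus C57, limma). Because the mdx allele is a point mutation, this probe set does not check the labels.

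In mdx against C57 muscle, 8 of the 22 tested members passed an adjusted p under 0.05, of which 2 were higher and 6 lower. The share called among all tested probe sets was 12.0%, made up of 7.06% that were higher and 4.96% that were lower. The members that fell were the antagonists Frzb and Sfrp5, the ligands Wnt4 and Wnt5a and the receptors Fzd7 and Fzd9. Those that rose were the antagonists Sfrp1 and Sfrp2. The median difference over the 22 members was -0.12, beside -0.01 over all probe sets. Without C57 mouse C2, and likewise without C3, the count was 5, with Fzd7, Sfrp1 and Wnt5a no longer called.

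In treated against mdx muscle 2 of the 22 were called, Fzd6 with a higher and Wnt10a with a lower signal, beside 11.1% of all probe sets (7.26% higher and 3.88% lower). Wnt10a was tested only through its C57 mean, and both of its means in this comparison were under the minimum signal, which leaves Fzd6 as the call between measured means. The count was 0 without the mdx mouse M3 or M4 or the treated mouse T3 or T4, 1 without C2, C3, M2 or T1, and 4 without T2, where Fzd2 and Lrp6 were added. Leaving out T2 also raised the share over all probe sets to 28.3%. In treated against C57 muscle 9 were called, beside 24.6% of all probe sets (15.6% higher and 8.96% lower). Sfrp2, Fzd6 and Lrp6 were higher there, and Frzb, Sfrp5, Wnt4, Fzd7, Fzd9 and Wnt10a were lower, the last with a C57 mean just over the minimum. That count was 5 without C2 or without C3. The median member differences were -0.07 for treated minus mdx and -0.18 for treated minus C57, beside 0.02 and 0.00 over all probe sets. The 3 comparisons share their mice, so that the mdx values stand in 2 of them and the C57 values in 2 of them, and their calls are not independent of each other.

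**Figure D1:**
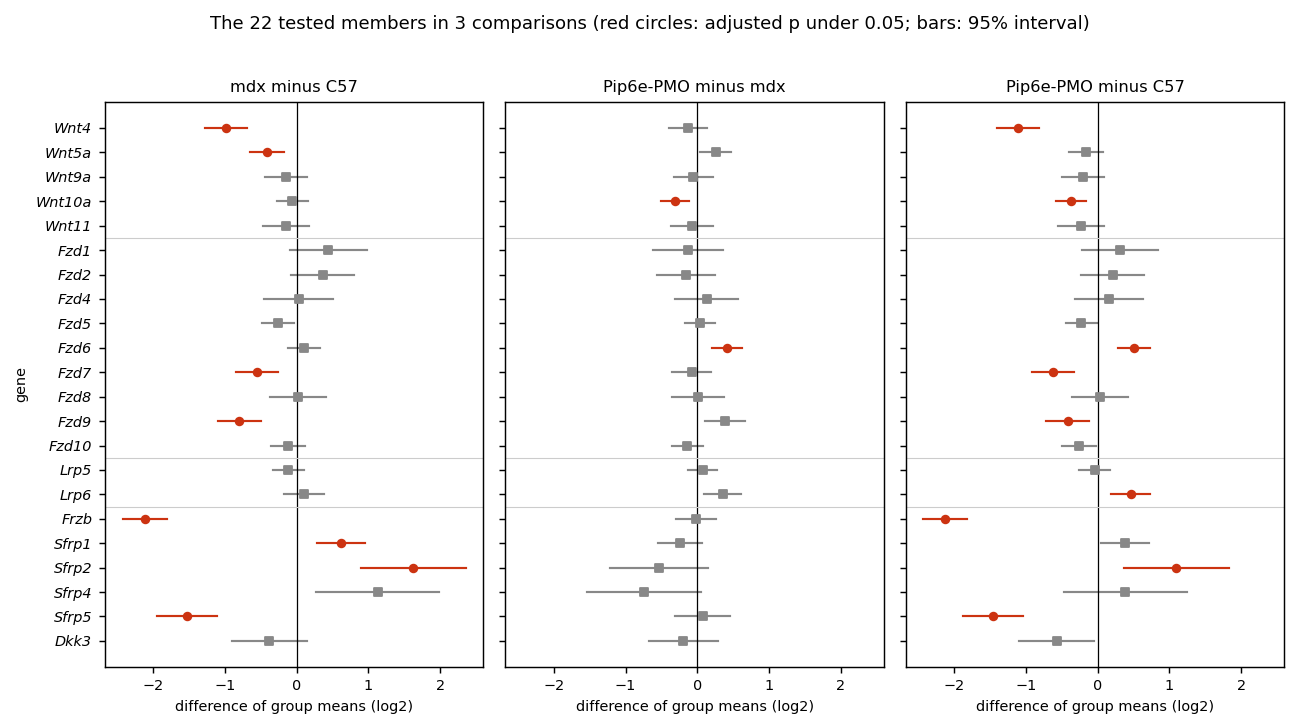
Differences between group means (log2, x axis) of the 22 tested members (y axis, from the ligands at the top through the Frizzled receptors and co-receptors to the antagonists) in the 3 comparisons, with 95% intervals from limma. Red circles passed an adjusted p under 0.05, and grey squares did not: Frzb and Sfrp5 lie farthest to the left in both comparisons with C57, and Sfrp2 farthest to the right.

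Among the ligands, Wnt4, which is known from kidney and muscle development, measured 7.12, 7.13 and 7.28 in the C57 mice, 5.91, 6.09, 6.22 and 6.55 in the mdx mice and 6.0, 6.05, 6.18 and 6.04 in the treated mice. Every C57 mouse lay above all 8 dystrophic mice, and the mdx and treated mice overlapped. The mdx mean was 1.98-fold lower than that of C57, a difference of -0.98 (standard error 0.13, adjusted p = 0.000657), and the treated mean was 2.16-fold lower (-1.11, adjusted p = 0.000275). The difference between treated and mdx mice was -0.13, with a 95% interval from -0.39 to 0.14 (adjusted p = 0.518). Wnt4 is the only member with a second probe set on the array. It measured 6.12, 6.42 and 5.97 in C57, 5.38, 5.45, 5.31 and 5.70 in mdx and 5.57, 5.27, 5.35 and 5.25 in treated mice, so that here too no dystrophic mouse reached the C57 range. Its differences from C57 were -0.71 in mdx (adjusted p = 0.00488) and -0.81 in treated mice (adjusted p = 0.00186).

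Wnt5a, a ligand best known for signals that do not use beta-catenin, measured 6.01, 6.08 and 6.17 in the C57 mice, 5.57, 5.86, 5.71 and 5.53 in the mdx mice and 5.84, 6.11, 5.86 and 5.88 in the treated mice. All 4 mdx mice lay below the C57 mice, whereas T1 and T3 lay at the top of the mdx range, T4 just above it and T2 within the C57 range. The mdx mean was 0.42 below that of C57 (1.34-fold lower, standard error 0.11, adjusted p = 0.0251). This call was lost when C2, C3, M1 or M4 was left out, with adjusted p-values up to 0.0971. The treated mean was 0.26 above that of mdx (95% interval 0.04 to 0.47), which did not pass the adjustment (adjusted p = 0.109), nor did its difference of -0.16 from C57 (adjusted p = 0.275).

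Wnt10a, a ligand of the beta-catenin route with known roles in skin and teeth, measured 4.79, 4.99 and 5.04 in the C57 mice, 4.97, 4.79, 4.92 and 4.84 in the mdx mice and 4.49, 4.71, 4.52 and 4.56 in the treated mice. All 4 treated mice lay below the other 7, and the C57 and mdx mice overlapped. On the linear scale the C57 mean of 30.8 was just over the minimum signal of 30, and the means of 29.5 in mdx and 23.8 in treated mice were under it. The signal of the treated mice was called lower than that of mdx (adjusted p = 0.0464) and of C57 (adjusted p = 0.0183). No size is given against mdx, since both means were under the minimum, and against C57 the bound is at least 1.02-fold. The call against mdx was lost when any single mouse other than C1 or T2 was left out, with adjusted p-values up to 0.112, and that against C57 without C2 or C3. The tested ligands Wnt9a and Wnt11 were not called. Of these the larger difference was that of Wnt11 for treated minus C57, -0.23 (95% interval -0.55 to 0.09, adjusted p = 0.268), which without T2 was -0.36 and was called (adjusted p = 0.0365).

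**Figure D2:**
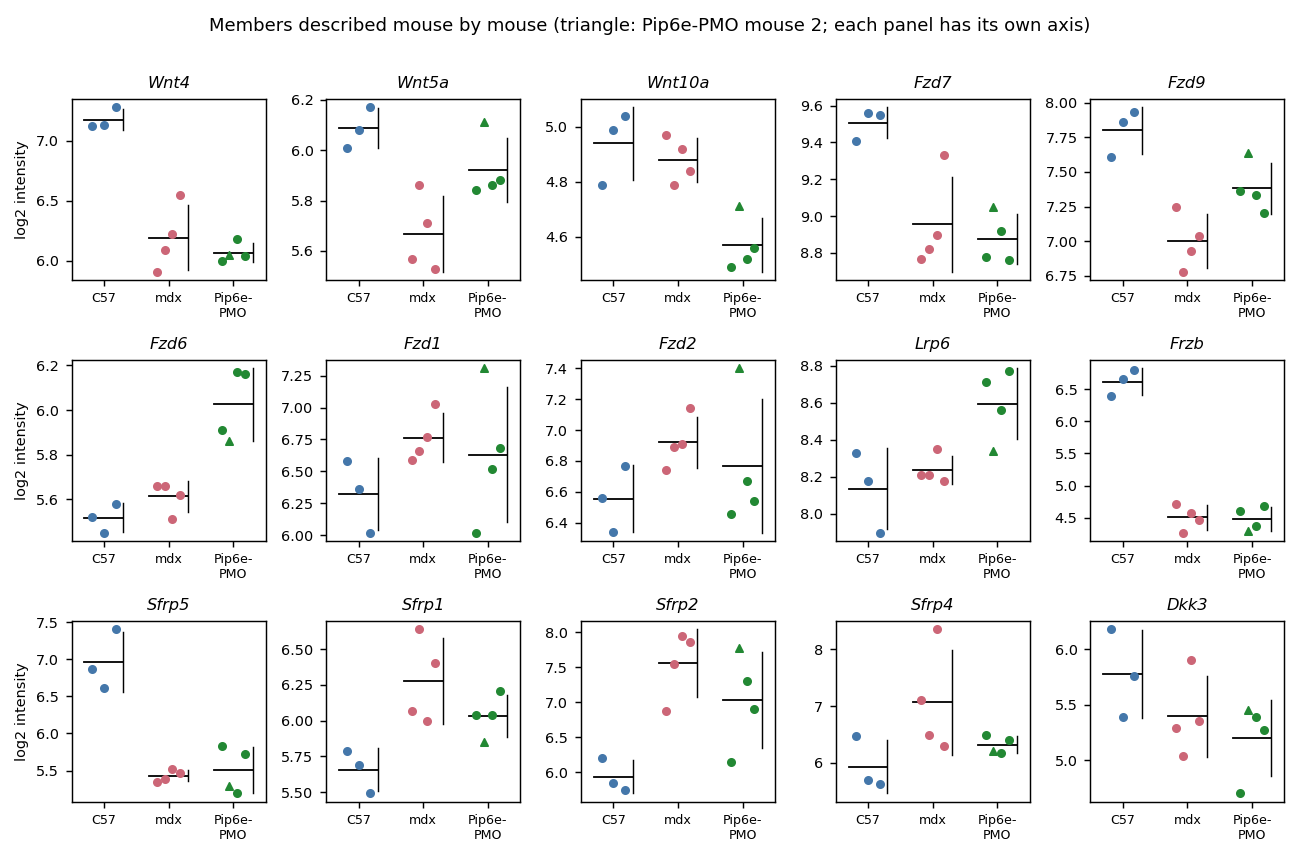
Log2 intensity (y axis, with a scale of its own in each panel) of the 15 members given mouse by mouse, in 3 C57, 4 mdx and 4 Pip6e-PMO-treated mice. Points are mice, the triangle is T2, horizontal lines are group means and vertical lines the SD: the C57 points of Wnt4, Frzb and Sfrp5 stand clear above all 8 dystrophic mice, and the treated points of Fzd6 stand above the other 7.

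Among the 9 tested Frizzled receptors, Fzd7 and Fzd9 were lower in mdx than in C57 muscle and none was higher. Fzd7, a receptor that satellite cells are known to carry, measured 9.41, 9.56 and 9.55 in the C57 mice, 8.77, 8.82, 8.90 and 9.33 in the mdx mice and 8.78, 9.05, 8.92 and 8.76 in the treated mice. The dystrophic mice all lay below the C57 mice, with M4 the nearest to them. The differences from C57 were -0.55 in mdx (1.47-fold lower, standard error 0.14, adjusted p = 0.0196) and -0.63 in treated mice (1.55-fold lower, adjusted p = 0.00709). The call in mdx was lost without C2, C3, M1, M2 or M3, with adjusted p-values up to 0.0811, whereas the call in treated mice held with any mouse left out. Treated and mdx mice differed by -0.08 (95% interval -0.35 to 0.19, adjusted p = 0.71).

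Fzd9 measured 7.61, 7.86 and 7.93 in the C57 mice, 7.25, 6.78, 6.93 and 7.04 in the mdx mice and 7.36, 7.64, 7.33 and 7.20 in the treated mice. The mdx mice all lay below the C57 mice. The treated mice lay between, with T4 in the range of the mdx mice and T2 in that of the C57 mice. The mdx mean was 0.80 below that of C57 (1.74-fold lower, standard error 0.14, adjusted p = 0.0028), and this call held with any mouse left out. The treated mean was 0.38 above that of mdx (95% interval 0.11 to 0.66), without passing the adjustment (adjusted p = 0.0688), and 0.42 below that of C57 (adjusted p = 0.0442), a call that was lost without C2, C3, M3, M4, T1, T3 or T4 (adjusted p up to 0.158). Without T2 the treated mean lay 0.50 below C57 (adjusted p = 0.0137).

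Fzd6, a receptor with known roles in the orientation of hair, measured 5.52, 5.45 and 5.58 in the C57 mice, 5.66, 5.66, 5.51 and 5.62 in the mdx mice and 5.91, 5.86, 6.17 and 6.16 in the treated mice. The treated mice all lay above the other 7 mice, and the C57 and mdx mice overlapped. The treated mean was 1.33-fold higher than that of mdx (0.41, standard error 0.09, adjusted p = 0.0241) and 1.42-fold higher than that of C57 (0.51, adjusted p = 0.00509). The difference between mdx and C57 was 0.10 (95% interval -0.13 to 0.32, adjusted p = 0.633). The call against mdx was lost without M3, M4, T3 or T4, with adjusted p-values up to 0.0751, and the adjusted p was 0.00599 without T2.

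Fzd1 measured 6.58, 6.36 and 6.02 in the C57 mice, 6.59, 6.66, 6.77 and 7.03 in the mdx mice and 6.02, 7.31, 6.52 and 6.68 in the treated mice. Fzd2 measured 6.56, 6.34 and 6.77 in the C57 mice, 6.74, 6.89, 6.91 and 7.14 in the mdx mice and 6.46, 7.40, 6.67 and 6.54 in the treated mice. In both receptors T2 was the highest and T1 the lowest treated mouse, a spread wider than the difference between any groups. The mdx means lay 0.44 (Fzd1, adjusted p = 0.295) and 0.36 (Fzd2, adjusted p = 0.299) above those of C57. Without T2, the treated mean of Fzd2 lay 0.36 below that of mdx and was called (adjusted p = 0.0467), against -0.15 with T2 (adjusted p = 0.611). The other tested receptors, Fzd4, Fzd5, Fzd8 and Fzd10, were not called. Differences of all 7 tested members that are not given mouse by mouse ran from -0.26 to 0.16, and the largest among the receptors was that of Fzd10 for treated minus C57 (-0.26, 95% interval -0.50 to -0.03, adjusted p = 0.0902), which without T2 was -0.32 (adjusted p = 0.0356).

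Of the co-receptors, Lrp6 measured 8.33, 8.18 and 7.90 in the C57 mice, 8.21, 8.21, 8.35 and 8.18 in the mdx mice and 8.71, 8.34, 8.56 and 8.77 in the treated mice. T1, T3 and T4 lay above all 7 untreated mice, and T2 lay within the mdx range, just below M3. The treated mean was 1.37-fold higher than that of C57 (0.46, standard error 0.13, adjusted p = 0.023). Its difference of 0.36 from mdx (95% interval 0.10 to 0.61) did not pass (adjusted p = 0.0674), whereas without T2 it was 0.44 and did (adjusted p = 0.0145). The call against C57 was itself lost without C2, C3, T1 or T4, with adjusted p-values up to 0.108. Lrp5 was not called, and its largest difference was that of mdx from C57, -0.12 (95% interval -0.33 to 0.10, adjusted p = 0.523).

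The secreted antagonists of the Frizzled-related family moved in both directions. In mdx against C57 muscle 4 of these 5 genes were called, 2 lower and 2 higher, and none was called between treated and mdx muscle. Frzb, known from cartilage and from muscle precursors, measured 6.39, 6.66 and 6.80 in the C57 mice, 4.72, 4.27, 4.57 and 4.46 in the mdx mice and 4.61, 4.29, 4.37 and 4.68 in the treated mice. The lowest C57 mouse stood far above the highest dystrophic mouse, M1, and the mdx and treated mice overlapped fully. The fitted differences were -2.11 in mdx (standard error 0.14, adjusted p = 3.54e-06) and -2.13 in treated mice (adjusted p = 6.89e-06). On the linear scale the group means were 98.8 in C57, 22.9 in mdx and 22.6 in treated mice. The dystrophic means are below the minimum signal of 30, so the size is a bound: Frzb was at least 3.27-fold lower in either dystrophic group. Between treated and mdx mice, both under the minimum, no difference was called (adjusted p = 0.942).

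Sfrp5, an antagonist known from fat tissue, measured 6.87, 6.62 and 7.41 in the C57 mice, 5.35, 5.39, 5.52 and 5.47 in the mdx mice and 5.83, 5.29, 5.19 and 5.72 in the treated mice. All 8 dystrophic mice lay below the lowest C57 mouse, with the treated mice spread around the narrow mdx range. The mdx mean was 2.90-fold lower than that of C57 (-1.53, standard error 0.19, adjusted p = 0.000386), and the treated mean was 2.75-fold lower (-1.46, adjusted p = 0.000445). Treated minus mdx was 0.08 (95% interval -0.31 to 0.46, adjusted p = 0.808). The calls of Frzb, Sfrp5 and Wnt4 against C57, in mdx and in treated mice, held with any mouse left out, T2 included.

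Sfrp2, an antagonist that fibroblasts and injured tissue are known to secrete, measured 6.21, 5.85 and 5.75 in the C57 mice, 6.88, 7.55, 7.95 and 7.87 in the mdx mice and 6.15, 7.78, 7.31 and 6.90 in the treated mice. The mdx mice all lay above the C57 mice. Of the treated mice, T1 lay within the C57 range, T2, T3 and T4 within that of mdx. The mdx mean was 3.09-fold higher than that of C57 (1.63, standard error 0.34, adjusted p = 0.0082), and the treated mean was 2.14-fold higher (1.10, adjusted p = 0.0348). The second of these calls was lost without T2 (0.85, adjusted p = 0.0531) and without C2, C3, T3 or T4 (adjusted p up to 0.119). The treated mean lay 0.53 below that of mdx, with a 95% interval from -1.21 to 0.15 (adjusted p = 0.271).

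Sfrp1 measured 5.79, 5.69 and 5.49 in the C57 mice, 6.07, 6.64, 6.0 and 6.40 in the mdx mice and 6.04, 5.85, 6.04 and 6.21 in the treated mice. Every dystrophic mouse lay above every C57 mouse. The mdx mean was 1.54-fold higher (0.62, standard error 0.15, adjusted p = 0.0207), a call that was lost without C2, C3 or M4, with adjusted p-values up to 0.0935. The treated mean lay 0.38 above that of C57 (95% interval 0.04 to 0.71) and was not called (adjusted p = 0.0895). Treated minus mdx was -0.24 (95% interval -0.55 to 0.07, adjusted p = 0.266).

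Sfrp4 measured 6.48, 5.70 and 5.63 in the C57 mice, 7.11, 6.50, 8.35 and 6.29 in the mdx mice and 6.50, 6.21, 6.18 and 6.40 in the treated mice. The mdx mouse M3 was the highest by a wide margin, and C1 lay among the dystrophic mice. The mdx mean lay 1.13 above that of C57 (95% interval 0.27 to 1.98) without passing (adjusted p = 0.0887), and was called only without M4 among the mice left out in turn (adjusted p = 0.0426). Dkk3, the tested member of the Dickkopf family, measured 6.18, 5.39 and 5.76 in the C57 mice, 5.29, 5.04, 5.90 and 5.35 in the mdx mice and 4.70, 5.45, 5.39 and 5.27 in the treated mice. Its groups overlapped, and its largest difference, treated minus C57, was -0.57 (95% interval -1.09 to -0.06, adjusted p = 0.0944).

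The rest of the pathway was read from a list of 69 further genes, of which 50 could be tested. In mdx against C57 muscle 7 were called, 3 higher and 4 lower, beside the 12.0% of all probe sets. In treated against mdx muscle 2 were called, both higher, beside the 11.1% of all probe sets. In treated against C57 muscle 11 were called, 8 higher and 3 lower, beside the 24.6% of all probe sets (15.6% higher and 8.96% lower). The list medians were 0.01, 0.14 and 0.12 in these 3 comparisons. Without C2 the first count was 4. The second was 7 without T2 (beside 28.3% of all probe sets), 2 without C3 and 1 without any other mouse. The third was 6 without C2, 5 without C3 and 7 without T3 or T4.

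Wls, the carrier that brings Wnt proteins to the cell surface, measured 6.84, 6.64 and 6.62 in the C57 mice, 7.30, 7.52, 7.38 and 7.16 in the mdx mice and 7.29, 7.52, 7.68 and 7.51 in the treated mice. All 8 dystrophic mice lay above the C57 mice. It rose by 0.64 in mdx (1.56-fold, adjusted p = 0.00432) and by 0.80 in treated mice (1.74-fold, adjusted p = 0.000949). The other 2 genes of secretion on the list were not called with all mice (Porcn) or not tested (Notum).

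Axin2, a beta-catenin target that feeds back on the pathway, measured 6.82, 6.94 and 6.94 in the C57 mice, 6.05, 5.70, 5.94 and 6.27 in the mdx mice and 6.22, 6.27, 6.22 and 5.90 in the treated mice. No dystrophic mouse reached the C57 range. It fell by 0.91 in mdx (1.88-fold lower, adjusted p = 0.00118) and by 0.75 in treated mice (1.68-fold lower, adjusted p = 0.00296). Apcdd1, a membrane protein that holds back Wnt signals, measured 6.87, 6.56 and 6.64 in the C57 mice, 5.50, 5.99, 5.91 and 6.09 in the mdx mice and 5.59, 5.99, 5.43 and 5.65 in the treated mice. It was likewise below the C57 range in all 8 dystrophic mice. Its differences from C57 were -0.82 in mdx (adjusted p = 0.0062) and -1.03 in treated mice (adjusted p = 0.00136).

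Other targets on the list went another way. Ccnd1, which encodes cyclin D1 of the cell cycle and answers to many signals, was 1.55-fold higher in mdx (adjusted p = 0.0389) and 1.47-fold higher in treated mice (adjusted p = 0.0427) than in C57. T2 was the highest of all 11 mice for Ccnd1 at 8.39, and without T2 its treated mean lay 0.41 above that of C57 and was not called (adjusted p = 0.0619). The call in mdx was lost without any of 6 single mice (adjusted p up to 0.175), and that in treated mice without any of 8 (adjusted p up to 0.161). Fosl1, a subunit of the AP-1 factor, had a C57 mean of 26.0 on the linear scale, under the minimum signal, and was at least 1.49-fold higher in mdx (adjusted p = 0.046). This call was lost without C1, C2, C3, M1, M2, M4, T1 or T3, with adjusted p-values up to 0.149. Of the 10 tested target genes, 3 were called in mdx against C57, Ccnd1 and Fosl1 higher and Axin2 lower.

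Lgr4, the receptor for R-spondins, which strengthen Wnt signals, measured 7.76, 7.76 and 7.47 in the C57 mice, 7.13, 7.18, 7.05 and 6.84 in the mdx mice and 7.80, 7.43, 7.87 and 7.93 in the treated mice. The mdx mice all lay below the other 7, and the treated and C57 mice overlapped, with T2 the lowest of them. Lgr4 fell by 0.61 in mdx against C57 (1.53-fold lower, adjusted p = 0.012) and was 1.63-fold higher in treated than in mdx mice (0.71, adjusted p = 0.0109). The first of these calls was lost without C2 (adjusted p = 0.0622). Treated minus C57 was 0.09 (95% interval -0.20 to 0.39, adjusted p = 0.635). Pygo1, a partner of beta-catenin in the nucleus, was the other gene higher in treated than in mdx mice (0.42, 1.33-fold, adjusted p = 0.0398). It measured 6.50, 6.45 and 6.47 in the C57 mice, 6.20, 6.17, 6.24 and 6.26 in the mdx mice and 6.86, 6.41, 6.41 and 6.85 in the treated mice. T1 and T4 were the high ones, and the call of Pygo1 was lost when any mouse other than T2 was left out, whereas the call of Lgr4 against mdx held with any mouse left out.

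Celsr2, a cadherin of the cell polarity route, measured 6.89, 7.25 and 6.89 in the C57 mice, 5.31, 5.57, 5.82 and 5.98 in the mdx mice and 6.21, 6.11, 5.90 and 6.11 in the treated mice. The C57 mice lay above all others. It was 2.53-fold lower in mdx (-1.34, adjusted p = 0.000264) and 1.90-fold lower in treated mice (-0.93, adjusted p = 0.00214). The treated mean lay 0.41 above that of mdx without passing (adjusted p = 0.0805). In treated against C57 muscle Daam1 of the polarity route, the receptor Ror1, and Ctnnb1, which encodes beta-catenin itself, were higher. Their differences were 0.41 (Daam1, adjusted p = 0.0474), 0.51 (Ror1, adjusted p = 0.0164) and 0.58 (Ctnnb1, adjusted p = 0.0271). All 3 calls were lost without C2 or C3 (adjusted p up to 0.188 with any mouse left out), and for Ctnnb1 the C57 mouse C1 at 10.19 lay above T2 at 10.11. Against mdx the treated mean of Ctnnb1 lay 0.49 higher and was not called (adjusted p = 0.0598), whereas without T2 it lay 0.61 higher and was (adjusted p = 0.0125). The other genes that were called between treated and mdx mice without T2 were Csnk1a1 and Tnfrsf19, which were higher, and Porcn and Wisp2, which were lower.

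**Figure D3:**
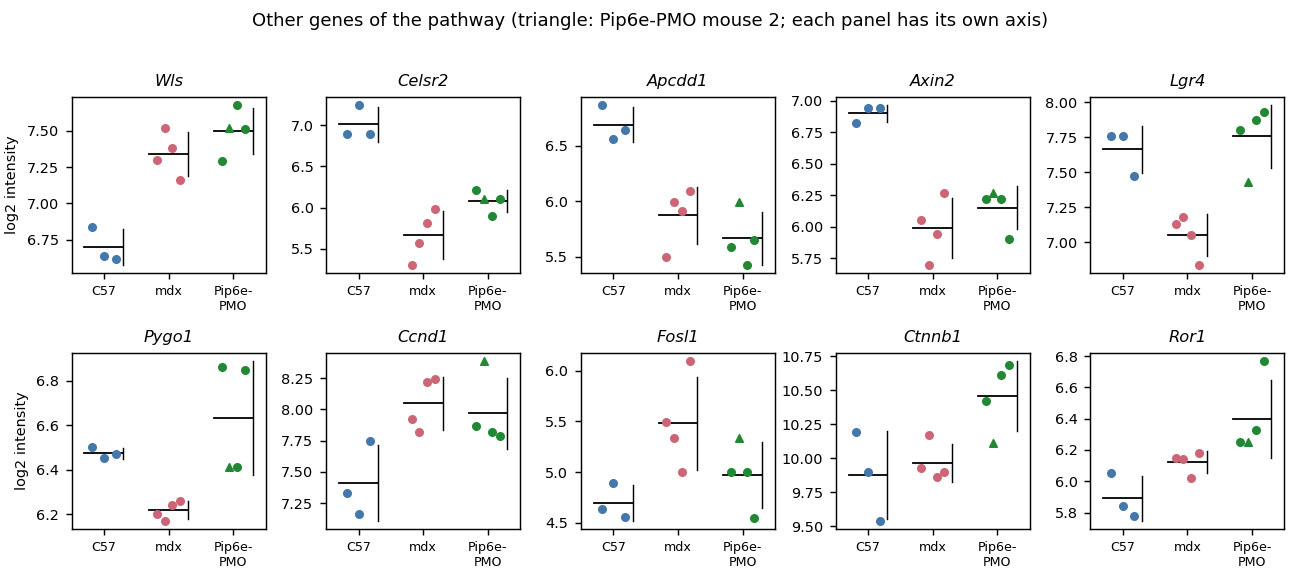
Log2 intensity (y axis, with a scale of its own in each panel) of 10 other pathway genes called in at least 1 comparison, in 3 C57, 4 mdx and 4 Pip6e-PMO-treated mice. Points are mice, the triangle is T2, horizontal lines are group means and vertical lines the SD: Axin2, Apcdd1 and Celsr2 were lower in all 8 dystrophic mice, and Lgr4 was lower in the 4 mdx mice.

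TA sections hold many cell types, and in bulk tissue fewer cells of a type and less RNA per cell cannot be told apart. Marker lists were therefore summed on the linear scale beside these results. The regenerating fibre list (Myh3, Myh8, Myog, Myl4 and Ncam1, 5 of 5 higher in mdx than in C57) summed to between 1070 and 1590 in C57, between 3230 and 5150 in mdx, and between 1670 and 3560 in treated mice. Most of that sum was the signal of Myl4. The macrophage list (5 of the 5 tested markers higher in mdx, with Cd163 under the minimum signal) gave sums between 861 and 1280 in C57, 2370 and 3760 in mdx, and 1920 and 2460 in treated mice. Both lists thus rose in mdx, as did Sfrp1 and Sfrp2, whereas the other 6 members called in that comparison fell. In the fibroblast list, 2 of 6 markers were higher in mdx than in C57, Col3a1 and Lum. Its sum ranged from 6160 to 7470 in C57, from 8170 to 9250 in mdx, and from 6910 in T1 to 10500 in T2 among the treated mice. T1 and T2 were also the lowest and highest treated mice for Sfrp2, Fzd1 and Fzd2. Such places are common: over all probe sets tested, T1 was the lowest treated mouse in 31.7% and T2 the highest in 36.0%.

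The glial factor Sox10, a marker of Schwann cells, moved in the direction of the members that fell. It measured 5.10, 5.0 and 5.56 in the C57 mice, 4.67, 4.64, 4.67 and 4.68 in the mdx mice and 4.58, 4.67, 4.28 and 4.27 in the treated mice, and every dystrophic mouse lay below the C57 mice. Its linear mean was 37.8 in C57 and under the minimum signal in mdx mice, at 25.4, and in treated mice, so that it was at least 1.24-fold lower in mdx (adjusted p = 0.0246) and in treated mice (adjusted p = 0.00326). S100b, of the same cells, was under the minimum signal. The sums of the satellite cell list overlapped, lying between 314 and 361 in C57, 316 and 349 in mdx, and 290 and 346 in treated mice. Most of this sum was the signal of Cdh15, so it says little of the other markers. The satellite cell marker Chrdl2 was lower in mdx and in treated than in C57 muscle, at least 1.18-fold in both since the dystrophic means were under the minimum. Pax7 and Cdh15 were not called, and Myf5 was under the minimum. The endothelial list, with Pecam1 and Tek higher in treated than in mdx mice (2 of 4), lay between 1130 and 1700 in C57, 1450 and 1860 in mdx, and 1590 and 2520 in treated mice. Most of the endothelial sum was the signal of Cdh5, which was not called. T2 was the lowest treated mouse for this sum, as it was for Fzd6, Lrp6 and Lgr4, and as it was in 36.7% of all probe sets tested.

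Of the adipocyte markers, Adipoq, Plin1 and Cidec were lower in treated than in mdx or C57 mice. These are 3 of 4 tested, with Lep under the minimum. Between mdx and C57 the differences of the 4 markers ran from -0.03 to 0.20 and none was called. The limma intervals there were wide for Adipoq (-0.63 to 1.03), Plin1 (-0.76 to 0.96) and Cidec (-0.73 to 0.87). That of Fabp4 was narrower (-0.30 to 0.24). Whether fat cells have a part in the fall of Sfrp5 was not tested. The adipocyte sum, most of it the signal of Fabp4, lay between 962 and 1250 in C57, 941 and 1270 in mdx, and 964 and 1090 in treated mice. In the slow fibre list, Tnni1 and Atp2a2 were higher in mdx than in C57, Tnnt1 and Myl2 were lower in treated than in mdx mice, and Myh7 was under the minimum. Its sum lay between 530 and 611 in C57, 980 and 2050 in mdx, and 737 and 1300 in treated mice. None of the 4 tendon markers was called. The part of the mix of cells in the differences of the Wnt family was not tested.

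**Figure D4:**
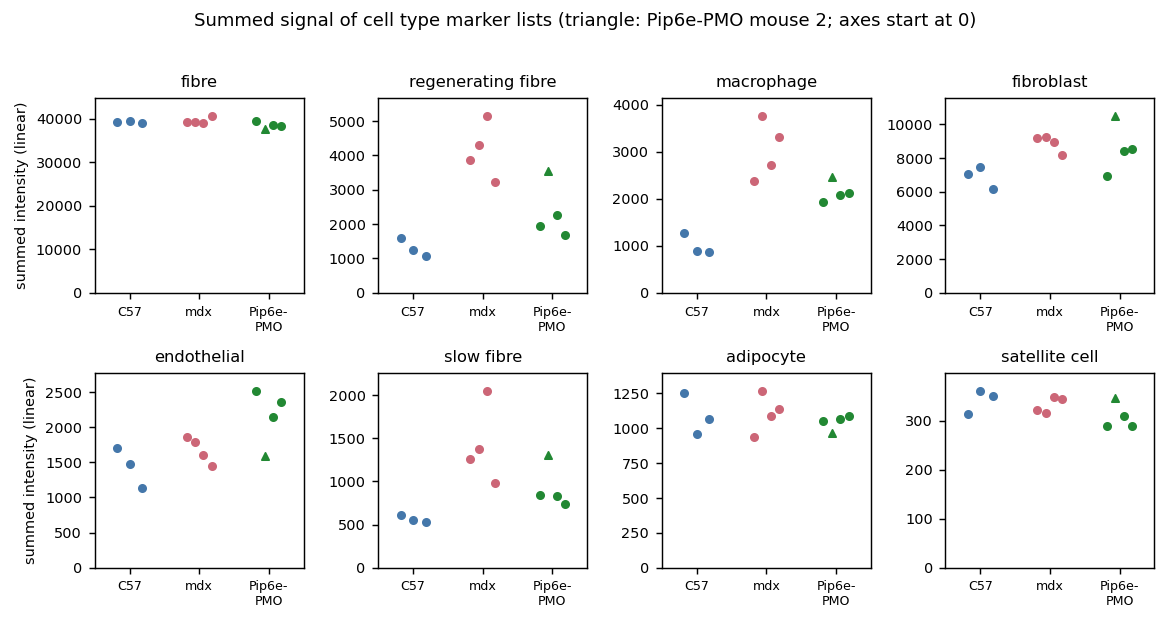
Summed linear intensity (y axis, starting at 0) of 8 cell type marker lists in 3 C57, 4 mdx and 4 Pip6e-PMO-treated mice. Points are mice and the triangle is T2: the fibre list was level, and the sums of the regenerating fibre, macrophage, fibroblast and slow fibre lists were higher in all 4 mdx mice than in all C57 mice. Of the slow fibre markers only Tnni1 and Atp2a2 were called in that comparison.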

How the data were processed

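RNA from the TA of 11 mice was measured on Affymetrix Mouse Gene ST 1.1 arrays. The authors used the RMA-Sketch procedure of Affymetrix Expression Console, which corrects background, equalizes the distributions of the arrays and summarizes each probe set by median polish, and deposited linear intensities. Their log2 lies on whole hundredths, so smaller differences are not resolved. The median intensity per array was 27.5 to 28.6, and the number of arrays limits the precision.

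Log2 intensities of 14494 probe sets were fitted with limma 3.58.1 (lmFit and eBayes, R 4.3.3), as 3 group means. Tests were two-sided, p-values were adjusted by Benjamini-Hochberg over all probe sets tested, and an adjusted p under 0.05 was called. They measure the spread between these mice. Wnt4, with 2 probe sets, was represented by the brighter. Self-tests used simulated data. Tables and plots were made with Python 3.11.15, pandas 2.3.3 and matplotlib 3.10.9.

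Values are given mouse by mouse for members called in any comparison and for the 4 uncalled members with the largest difference. Of the other pathway genes, those called were named, up to 8 per comparison by size. Some Schwann cell markers are not reported here. The members and lists were chosen with earlier results of these data known. Alternatives changed the signal filter, normalization, prior, array weights, test, probe set and threshold, added a replicate block, or left out each mouse.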

Additional observations from a re-analysis of the deposited data

Results flagged for a closer look

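Among the groups of 4 mice (58 groups, 29 genes: the members given mouse by mouse and the pathway genes called), 5 had a mouse farther from the other 3 than Dixon's 95% limit for 4 values allows. Chance gives about 1 such group in 20. Wnt5a in T2 measured 6.11, against 5.84 to 5.88 in the other treated mice. Ccnd1 in T2 measured 8.39, against 7.79 to 7.87. Ror1 in T4 measured 6.77, against 6.25 to 6.33 in the other treated mice, and Axin2 in T4 measured 5.90, against 6.22 to 6.27. Apc in M3 measured 6.41, against 6.17 to 6.20 in the other mdx mice.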

How the results depend on the processing

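Of 19 called differences of single members, 8 passed under every alternative run: Frzb, Sfrp5 and Wnt4 in mdx and in treated mice, Fzd9 in mdx and Fzd7 in treated mice, all against C57 (Frzb was not testable at a minimum signal of 100). None of 27 differences followed changed sign, and 5 that were not called passed under at least 1 alternative. Member counts for mdx minus C57 (8) were 5 with a minimum signal of 100 and 4 with the methods' t-test after adjustment, and with each mouse left out 5 to 8. For treated minus mdx (2) they were 0 with a minimum of 100, with the methods' t-test, with the replicate block and at the study's threshold of unadjusted p under 0.01 and 1.5-fold, 1 with repeated quantile normalization, a trended robust prior or a fit of the groups compared, 5 with array quality weights, and 0 to 4 with each mouse left out. At an unadjusted p under 0.05, 5 members passed that t-test. For treated minus C57 (9) they were 5 with that t-test, the replicate block or the study's threshold, and 5 to 10 with each mouse left out. Counts of other pathway genes for mdx minus C57 (7) were 4 with the t-test or the replicate block, and 4 to 7 with each mouse left out. For treated minus mdx (2) they were 0 with the t-test, 1 with no minimum signal, a fit of the groups compared, the replicate block or the study's threshold, 8 with array weights, and 1 to 7 with each mouse left out. For treated minus C57 (11) they were 20 with array weights, 7 with a fit of the groups compared, 5 with the t-test, 6 with the replicate block, 4 at the study's threshold, and 5 to 12 with each mouse left out. The cause of these changes was not tested, apart from the higher minimum, which tests fewer genes. The share of all probe sets called is given only for the main fit and without T2. Counts under the other alternatives therefore have no such share beside them and do not show a change particular to Wnt genes. Mouse numbers do not pair the mice: deviations of same-numbered mice correlated between -0.297 and 0.153.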
